A study of Mus musculus with 6 samples.

Results

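The replication-independent histone variants described here are encoded by 10 genes, chosen by name from the table of counts with the symbols that the table uses: H1f0, H1fx, H2afz, H2afv, H2afx, H2afy, H2afy2, H2afj, H3f3a and H3f3b. All 10 were among the 24062 genes of the table and among the 14090 that had enough counts to be tested. The list uses no threshold, but it was drawn up with the differences between the groups known, so the fold changes and p-values below describe each gene and support nothing about the list. RNA was sequenced from embryonic fibroblasts of C57BL/6 mice at day 4. The p27 OE cells carried a lentivirus for overexpression of p27, the inhibitor of cyclin-dependent kinases encoded by Cdkn1b, and the labels state that these cells were not yet senescent. They were set against the EV control, which is labelled by this abbreviation alone. There were 3 libraries of each, numbered 1 to 3. The sources used here give neither the promoter that drives p27 in the virus nor whether libraries with different numbers are separate cultures. The p-values measure only the spread between these libraries, which between the numbers 2 and 3 may be technical in part.

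Most histone genes are transcribed in S phase, when new DNA has to be packed, and their mRNAs end in a stem-loop in place of a poly(A) tail. The genes described here are transcribed outside S phase as well, they can give polyadenylated mRNAs, and chaperones can load their proteins onto chromatin without replication. Their products are known from different settings: H3.3 from transcribed genes, H2A.Z from promoters and macroH2A from silent chromatin. H2A.X is phosphorylated beside DNA breaks, and the linker histone H1.0 is known from cells that have left the cycle. In human fibroblasts the variant H2A.J is known to build up in senescence.

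Cdkn1b stood at 419, 978 and 460.0 CPM (counts normalised to scaled library size) in p27 OE 1, 2 and 3, against 52.2, 49.9 and 51.2 CPM in EV control 1, 2 and 3. The lowest p27 OE library thus lay far above the highest EV control library. With the wide spread in p27 OE, edgeR did not call the gene (log2 fold change 3.60 ± 0.35, adjusted p 0.180, and 3.48 ± 0.42, adjusted p 0.0873, with the replicate number as a block), but without p27 OE 2 it did (3.11, adjusted p 0.00105), as did DESeq2 on all libraries (3.61, adjusted p 3.88e-27). Total counts ran from 34920728 to 52098220 per library. In each group the library numbered 1 lay far from the others by the mean chi-square per gene between libraries. It was 123 and 101 from p27 OE 1 to p27 OE 2 and 3, against 14.9 between p27 OE 2 and 3. From EV control 1 to EV control 2 and 3 it was 101 and 134, against 9.38 between EV control 2 and 3. The first principal component held 58.9% of the variance. Xist, which is transcribed from the inactive X chromosome of female cells, was at 477 CPM in p27 OE 1 and 317 CPM in EV control 1. It was at 9.57 CPM in p27 OE 2 and 5.93 CPM in EV control 2, but at 0.504 CPM in p27 OE 3 and 0.601 CPM in EV control 3. Counts of Ddx3y, carried on the Y chromosome, came to 0.0220, 65.5 and 62.8 CPM in p27 OE 1, 2 and 3, against 0.0556, 62.1 and 54.3 CPM in EV control 1, 2 and 3, so the libraries numbered 1 differed from the others in the sex of the cells. The markers of fibroblasts summed to between 58058 and 59937 CPM in p27 OE and between 54046 and 59107 CPM in EV control. edgeR with the replicate number as a block called 1 of these 8 lower (Pdgfra). Pecam1, Cdh5 and Cldn5 of 5 endothelial markers, Epcam, Cdh1 and Krt14 of 5 epithelial markers and Myod1, Myog, Myf5 and Ckm of 5 skeletal muscle markers were under 1 CPM in all libraries, Myf5 and Ckm at 0. The 5 epithelial markers summed to between 9.41 and 9.69 CPM in p27 OE and between 10.6 and 11.99 CPM in EV control, lower in all p27 OE libraries, with 0 of the 2 tested called. The 5 macrophage markers in the table summed to between 36.1 and 64.4 CPM in p27 OE and between 40.4 and 50.7 CPM in EV control. The 5 neural markers summed to between 172 and 232 CPM in p27 OE and between 131 and 151 CPM in EV control, with 2 called higher and Sox10 under 1 CPM, and the part of these markers in the results below was not tested.

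Compared per length of exon, the variants fell into a high and a low tier. H3f3b, one of the 2 genes of H3.3, was the highest at 120 ± 12.8 CPM per kb in p27 OE and 135 ± 14.5 CPM per kb in EV control (SD, n = 3). H1f0, the gene of H1.0, followed at 100.1 ± 9.57 CPM per kb in p27 OE and 127 ± 8.67 in EV control. H3f3a, the other H3.3 gene, stood at 83.7 ± 8.73 CPM per kb in p27 OE and 95.1 ± 15.1 in EV control, and H2afz, the main gene of H2A.Z, at 77.5 ± 1.09 in p27 OE and 88.7 ± 2.63 in EV control. The ranges of neighbours in this order overlapped across libraries in both groups, except those of H1f0 and H3f3a in EV control. Within each library of either group, however, H3f3b was above H1f0 and H1f0 above H3f3a on this scale, while H3f3a and H2afz changed places between libraries.

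The other 6 genes were lower. H2afx, the gene of H2A.X, had 25.3 ± 6.19 CPM per kb in p27 OE and 25.8 ± 3.55 in EV control, and H2afy2, the gene of macroH2A2, had 21.7 ± 4.32 in p27 OE and 26.8 ± 4.47 in EV control. H2afv, the second gene of H2A.Z, had 18.0 ± 2.81 CPM per kb in p27 OE and 22.1 ± 2.33 in EV control. Neighbours among these 3 overlapped in each group, and H2afy2 stood above H2afx in EV control. H2afy, the gene of macroH2A1, had 13.6 ± 0.695 CPM per kb in p27 OE and 14.3 ± 0.687 in EV control, and H2afj, the gene of H2A.J, had 12.8 ± 0.378 in p27 OE and 12.6 ± 0.583 in EV control. H1fx, the gene of the linker histone H1X, was below all libraries of H2afj at 8.13 ± 0.848 CPM per kb in p27 OE and 9.84 ± 0.761 in EV control. The place of H2afy depends on the length used, since its exons cover 6809 bases in union. Scaled to its longest transcript of 4018 bases it stood at 23.0 CPM per kb in p27 OE and 24.3 in EV control. The transcript taken for its coding sequence has 2046 bases, on which it would stand higher still, but no level was computed on that length. Scaled to the longest transcript, H2afz moved up to rank 2, below H3f3b, at 129 CPM per kb in p27 OE and 147 in EV control. H1f0 then had rank 4 in p27 OE, at 100.1 CPM per kb against 103 for H3f3a. In EV control H1f0 stayed above H3f3a, at 127 against 117 CPM per kb.

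**Figure D1:**
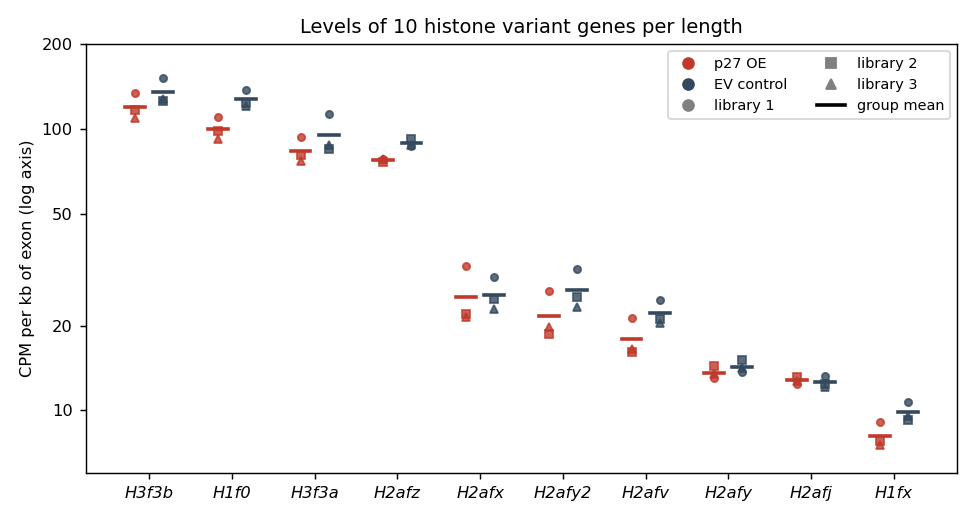
Level of each histone variant gene in CPM per kb of exon, on a log axis, for 3 p27 OE libraries (red, left) and 3 EV control libraries (dark, right), with bars at the group means. H3f3b, H1f0, H3f3a and H2afz lie between 76.2 and 152 CPM per kb, and the highest library of the other 6 is at 32.5.

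The genes differ in build. Introns were counted in a single coding transcript per gene, the longest of those with the longest coding sequence, and other transcripts may differ. H1f0, H1fx, H2afx and H2afj have no intron in their coding transcript, like the S phase histone genes, whereas H3f3a has 3 introns, H2afz and H2afv have 4 each, H3f3b has 5 and the macroH2A genes H2afy and H2afy2 have 8 each (GENCODE M21 on GRCm38, the assembly that mm10 names). H1f0 lies at chr15:79028450-79030504 on the forward strand, H2afz at chr3:137864487-137866922 on the forward strand, H2afv at chr11:6427229-6444443 on the reverse strand and H2afy2 at chr10:61738665-61784147 on the reverse strand. H3f3a lies at chr1:180800832-180813943 and H3f3b at chr11:116021912-116027962, both on the reverse strand.

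H3f3a and H3f3b encode the same protein, H3.3, from coding sequences of 411 bases each. Their first 120 coding bases are shown because they let the 2 genes be compared base by base where they encode the same residues (GENCODE M21 transcripts, GRCm38); capitals mark the bases that differ, 24 in this stretch.
H3f3a: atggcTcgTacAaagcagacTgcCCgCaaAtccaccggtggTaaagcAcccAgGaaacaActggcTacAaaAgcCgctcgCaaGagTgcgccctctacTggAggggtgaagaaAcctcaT
H3f3b: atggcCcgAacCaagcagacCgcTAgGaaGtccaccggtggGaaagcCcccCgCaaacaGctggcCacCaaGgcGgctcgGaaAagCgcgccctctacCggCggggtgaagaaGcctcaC
Over the whole coding sequence the 2 genes differed at 95 bases (76.7% identity), and the longest run they shared was 23 bases. H2afz and H2afv encode the near-identical proteins H2A.Z.1 and H2A.Z.2, and their first 120 coding bases differ at 28 positions, in capitals.
H2afz: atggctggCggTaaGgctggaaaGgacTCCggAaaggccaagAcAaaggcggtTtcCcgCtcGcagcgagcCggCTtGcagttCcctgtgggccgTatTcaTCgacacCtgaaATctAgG
H2afv: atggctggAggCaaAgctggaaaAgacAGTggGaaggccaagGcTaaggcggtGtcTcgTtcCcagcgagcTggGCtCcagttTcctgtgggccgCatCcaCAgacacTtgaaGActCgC
These 2 coding sequences of 387 bases differed at 80 (79.2% identity), and the longest shared run was 14 bases.

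Other genes share longer stretches. Of the stretches of 50 bases in the coding transcript of H2afz, 69.6% also occur in annotated transcripts of other genes, among them Tmcc1 and Gm8203, and 30.3% of those of H3f3a do, with 41 genes that share one. The shares were 8.4% for H3f3b, 15.4% for H2afy2, 5.7% for H1f0 and 0.0% for H2afv. Stretches were matched on both strands, so a gene that overlaps on the opposite strand at the same place counts as sharing. The sole gene that shares with H1f0, Gm49544, is of this kind. So are the genes that share most with H2afy2 (Aifm2) and H3f3a (Gm17275). H2afx and H2afj each share such stretches with 43 genes, Hist1h2ab among those of H2afx. The sources used here do not say how reads with several matches were counted, so the counts of H2afz and H3f3a are uncertain. For H3f3a the share includes stretches of the overlapping gene Gm17275, so it does not measure repeated sequence alone. All members but H2afz, H2afv and H3f3b overlap a gene on the opposite strand, and reads of the 2 cannot be told apart there, since the libraries carry no strand information. H1fx also overlaps Gm47286 on its own strand.

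Within libraries of the same number, 8 of the 10 genes were lower in p27 OE than in EV control for each of the 3 numbers, against 23.7% of all tested genes, and none was higher for each. In 3 of them, H1f0, H1fx and H2afz, all p27 OE libraries were below all EV control libraries, against 8.28% of all tested genes. edgeR with the replicate number as a block called 4 of the 10 lower in p27 OE (H1f0, H2afz, H2afv and H2afy2) and 0 higher; over all genes it called 7.43% (3.63% lower and 3.80% higher). Without the libraries numbered 1, 2 or 3 the blocked fit called 4, 2 and 2 of the 10 lower, against 6.04%, 2.97% and 0.746% of all genes. Without the block edgeR called 0 of the 10, as it called 0 of all 14090 genes (0% in either direction, with 1017 genes at an unadjusted p under 0.05), and DESeq2 without the block called 0 of the 10 and 0.671% of the genes it adjusted. For H2afz, H2afv and H2afy2 the edgeR fit without the block gave adjusted p 0.683, 0.691 and 0.759. The median log2 fold change of the 10 was -0.19 with the block, against 0.00 over all genes. The members' summed level was 1351, 1195 and 1144 CPM in p27 OE 1, 2 and 3, against 1562, 1350 and 1336 CPM in EV control 1, 2 and 3. In bulk RNA, fewer cells of a type and less RNA of a gene per cell cannot be told apart.

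**Figure D2:**
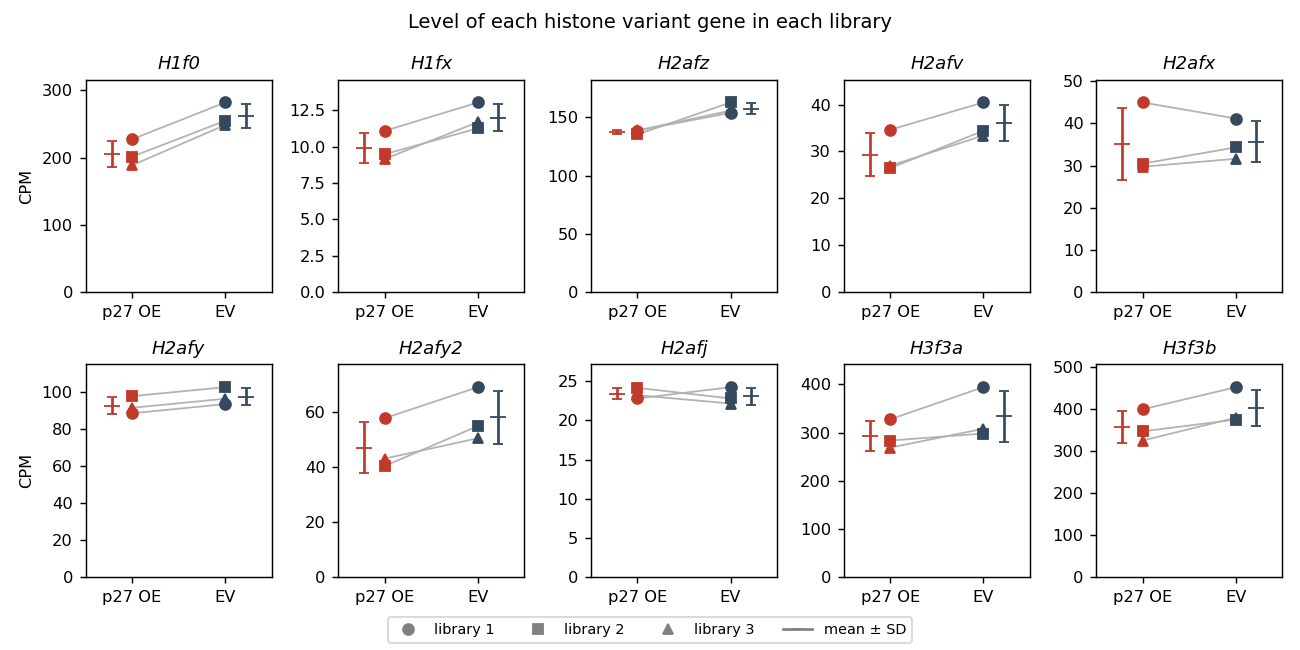
CPM of each gene in each library, p27 OE left and EV control right, with lines that join libraries of one number and bars for mean ± SD (n = 3). H1f0, H1fx and H2afz do not overlap between the groups, and the libraries numbered 1 lie highest in both groups for 7 of the 10 genes.

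H1f0 fell in p27 OE. It stood at 227, 201 and 189 CPM in p27 OE 1, 2 and 3, against 282, 255 and 248 CPM in EV control 1, 2 and 3. The groups did not overlap, and the difference was near even between numbers, at -0.31, -0.34 and -0.40 on the log2 scale for the numbers 1, 2 and 3. The paired edgeR fit gave -0.35 ± 0.05 (log2 fold change ± SE, n = 3 pairs; adjusted p 0.00240), so that it fell by 21.5%, and the fit without the block gave an adjusted p of 0.677. H1f0 alone among the 10 genes was called under each of the 10 alternatives that kept the block. H1.0 is known for building up in differentiated and resting cells.

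H1fx had 11.1, 9.47 and 9.15 CPM in p27 OE 1, 2 and 3, against 13.0, 11.2 and 11.7 CPM in EV control 1, 2 and 3. Its libraries did not overlap, yet it was not called (-0.28 ± 0.10, adjusted p 0.103 with the block in edgeR). The count ratio of H1f0 to H1fx, which no scaling changes, was 20.5, 21.3 and 20.6 in p27 OE and 21.6, 22.6 and 21.3 in EV control. The ratios of p27 OE 2 and EV control 3 nearly met, and the log2 differences within the numbers 1, 2 and 3 were -0.08, -0.09 and -0.05.

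Both H2A.Z genes were lower in p27 OE. H2afz stood at 139, 135 and 139 CPM in p27 OE 1, 2 and 3, against 154, 163 and 156 CPM in EV control 1, 2 and 3, with no overlap and little spread in either group. The estimate of the blocked edgeR fit was -0.19 ± 0.05 (adjusted p 0.0436), which did not pass without the libraries numbered 2 (0.236) or 3 (0.230), in DESeq2 with the block (0.0766) or with a correction for length and GC content (0.0593).

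H2afv stood at 34.6, 26.4 and 26.9 CPM in p27 OE 1, 2 and 3, against 40.4, 34.4 and 33.4 CPM in EV control 1, 2 and 3. The p27 OE library numbered 1 lay above the EV control libraries numbered 2 and 3, so the groups overlapped, but H2afv was lower within each number, with log2 differences of -0.22, -0.38 and -0.31. The paired edgeR fit gave -0.30 ± 0.07 (adjusted p 0.0183; leaving out number 2 gave 0.0637 and leaving out number 3 gave 0.117). H2afz outnumbered H2afv 4.01, 5.12 and 5.15 times in counts in p27 OE 1, 2 and 3, against 3.81, 4.73 and 4.67 times in EV control 1, 2 and 3; the ratio was higher in p27 OE within each number, and the groups overlapped.

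The 2 H3.3 genes were lower in p27 OE within each number, and neither was called. H3f3a stood at 327, 283 and 269 CPM in p27 OE 1, 2 and 3, against 394, 298 and 308 CPM in EV control 1, 2 and 3. H3f3b stood at 398, 346 and 324 CPM in p27 OE 1, 2 and 3, against 451, 374 and 378 CPM in EV control 1, 2 and 3. The groups overlapped for both genes, since the p27 OE library numbered 1 lay above the EV control libraries numbered 2 and 3. The log2 fold change in the paired edgeR fit was -0.18 ± 0.06 for H3f3a and -0.17 ± 0.05 for H3f3b (adjusted p 0.0717 and 0.0716). Both passed with upper-quartile scaling (0.0386 and 0.0379; 5.22% of all genes called lower) and with the correction for length and GC content (0.0290 and 0.0322; 4.65% called lower). The count ratio of H3f3b to H3f3a lay between 1.21 and 1.22 in p27 OE and between 1.14 and 1.25 in EV control.

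Of the macroH2A genes, H2afy2 fell and H2afy was not called. H2afy2 stood at 57.9, 40.5 and 43.2 CPM in p27 OE 1, 2 and 3, against 69.2, 55.0 and 50.6 CPM in EV control 1, 2 and 3. The p27 OE library numbered 1 lay above the EV control libraries numbered 2 and 3, so the groups overlapped, but each number was lower in p27 OE, with log2 differences of -0.26, -0.44 and -0.23. The paired edgeR fit gave -0.31 ± 0.06 (adjusted p 0.0123, and 0.0603 without the libraries numbered 2).

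H2afy stood at 88.5, 97.8 and 91.5 CPM in p27 OE 1, 2 and 3, against 93.5, 103 and 96.4 CPM in EV control 1, 2 and 3. The difference was the most even of the 10 between numbers, at -0.08, -0.07 and -0.08, but small, and edgeR did not call it (-0.07 ± 0.05 with the block, adjusted p 0.426). The counts of H2afy were 1.53, 2.42 and 2.12 times those of H2afy2 in p27 OE 1, 2 and 3, against 1.35, 1.87 and 1.91 times in EV control 1, 2 and 3. This ratio was higher in p27 OE within each number, with overlapping groups.

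**Figure D3:**
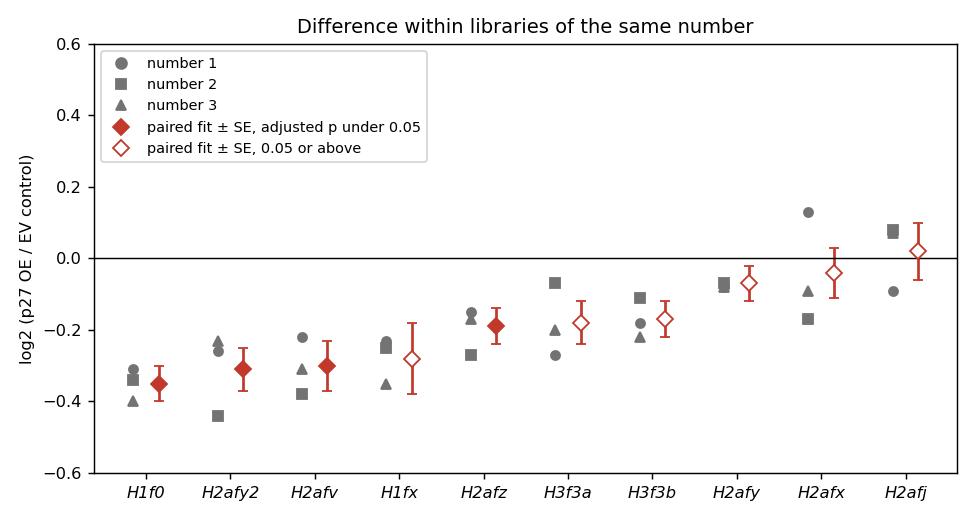
log2 ratio of p27 OE to EV control within each library number (grey) and the paired edgeR estimate ± SE (red, filled where the adjusted p is under 0.05), ordered by the estimate. H1f0, H2afy2, H2afv and H2afz are filled, and H2afx and H2afj have numbers on both sides of 0.

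H2afx and H2afj were the 2 genes whose numbers went both ways. H2afx, whose product is phosphorylated beside DNA breaks, stood at 44.9, 30.5 and 29.7 CPM in p27 OE 1, 2 and 3, against 41.1, 34.3 and 31.6 CPM in EV control 1, 2 and 3. It was higher in p27 OE for number 1 (0.13) and lower for numbers 2 and 3 (-0.17 and -0.09). The proliferation genes Mki67 and Top2a, chosen after their values were seen, were also highest in p27 OE 1. Mki67 had 119, 63.3 and 69.7 CPM in p27 OE and 73.5, 61.9 and 62.8 CPM in EV control. Unlike H2afx, it was higher in p27 OE for numbers 2 and 3 as well. Top2a had 155, 92.1 and 98.8 CPM in p27 OE and 131, 96.9 and 98.8 CPM in EV control, a smaller lead for number 1. The part of either gene in H2afx was not tested. With the block, edgeR gave -0.04 ± 0.07 for H2afx (adjusted p 0.787).

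H2afj stood at 22.8, 24.2 and 23.2 CPM in p27 OE 1, 2 and 3, against 24.2, 22.8 and 22.2 CPM in EV control 1, 2 and 3, and the groups lay within one narrow range. The paired edgeR fit gave 0.02 ± 0.08 (adjusted p 0.907). H2afj was the sole member whose estimate was not below 0, and with upper-quartile scaling it was 0.00. The ratio of H2afj to H2afx was 0.508, 0.793 and 0.781 in p27 OE 1, 2 and 3, against 0.589, 0.665 and 0.701 in EV control 1, 2 and 3, with the libraries numbered 1 lowest in both groups.

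**Figure D4:**
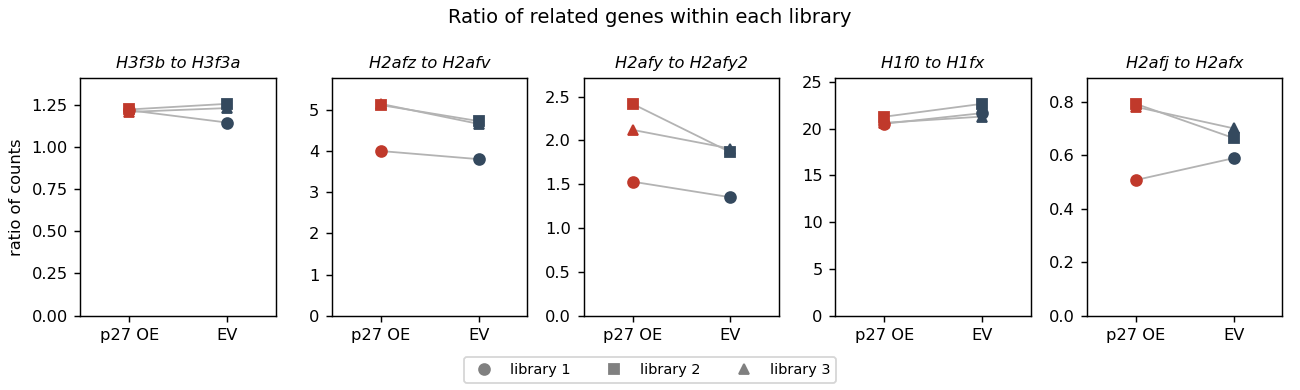
Ratio of counts of related variant genes within each library, p27 OE left and EV control right, with lines that join libraries of one number. H2afz to H2afv and H2afy to H2afy2 are higher in p27 OE within each number, H1f0 to H1fx is slightly lower, and H3f3b to H3f3a stays between 1.14 and 1.25.

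Transcript length moved with the difference between the groups, and its part in the results was not tested beyond the correction given here. In the paired edgeR fit the median log2 fold change was -0.07 over 1519 tested genes with a longest transcript of up to 1500 bases, with 7.31% called lower, and 0.04 over 5161 genes above 4000 bases, with 2.17% called lower. H1fx, with 1217 bases and 71.3% GC, stood at -0.14 ± 0.10 after the correction for length and GC content, against -0.28 ± 0.10 before. H2afz, with 1069 bases and 48.4% GC, was at -0.17 ± 0.05 after it, against -0.19 ± 0.05 before. H2afx, with 1384 bases and 62.3% GC, was at 0.05 ± 0.07, against -0.04 ± 0.07 before. The correction takes length and GC content together, so their parts were not told apart. H1f0, H2afv and H2afy2 stayed at -0.32 ± 0.05, -0.30 ± 0.07 and -0.28 ± 0.06 and were called. In all, 5 of the 10 genes were called lower, against 4.65% of all genes.

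**Figure D5:**
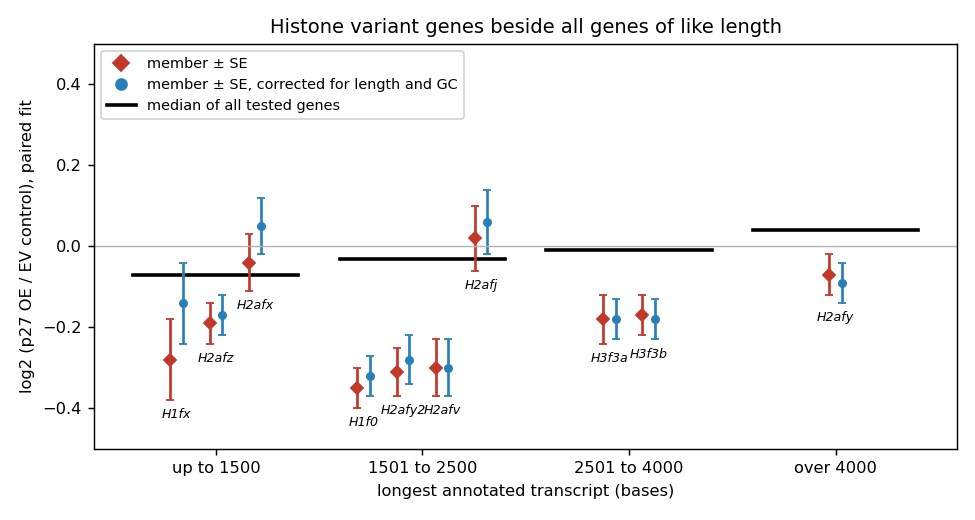
log2 fold change ± SE of each gene in the paired edgeR fit (red) and after correction for transcript length and GC content (blue), grouped by the longest annotated transcript, with black bars at the median of all tested genes of that length. The medians come from the fit without the correction. Before and after the correction of their values, 8 of the 10 genes lie below this median for their length, all but H2afx and H2afj.

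Promoter windows of 250 bases before to 50 after the gene start were found for 9 of the 10 genes in RefSeq (GRCm38.p6), all but H2afx. The windows of H3f3b and H2afv are shown because they hold the most CCAAT words, the box bound by the factor NF-Y, that of H2afz as the partner of H2afv, and that of H1f0 as the gene called under each alternative with the block; capitals mark CCAAT on either strand (ATTGG) and TATAAA.
H3f3b, chr11:116024455-116024754, reverse strand: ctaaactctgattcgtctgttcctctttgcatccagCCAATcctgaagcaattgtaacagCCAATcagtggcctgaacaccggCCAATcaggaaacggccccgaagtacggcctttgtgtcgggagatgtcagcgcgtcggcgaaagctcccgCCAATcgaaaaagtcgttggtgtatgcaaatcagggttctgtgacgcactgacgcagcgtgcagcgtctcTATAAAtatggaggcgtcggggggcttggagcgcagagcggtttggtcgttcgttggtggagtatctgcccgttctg
H2afv, chr11:6444394-6444693, reverse strand: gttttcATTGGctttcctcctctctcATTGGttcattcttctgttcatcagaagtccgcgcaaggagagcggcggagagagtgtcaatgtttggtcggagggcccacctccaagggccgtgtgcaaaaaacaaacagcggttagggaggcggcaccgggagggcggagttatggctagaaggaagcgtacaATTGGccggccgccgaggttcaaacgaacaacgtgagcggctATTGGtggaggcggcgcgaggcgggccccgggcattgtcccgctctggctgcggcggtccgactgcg
H2afz, chr3:137864237-137864536, forward strand: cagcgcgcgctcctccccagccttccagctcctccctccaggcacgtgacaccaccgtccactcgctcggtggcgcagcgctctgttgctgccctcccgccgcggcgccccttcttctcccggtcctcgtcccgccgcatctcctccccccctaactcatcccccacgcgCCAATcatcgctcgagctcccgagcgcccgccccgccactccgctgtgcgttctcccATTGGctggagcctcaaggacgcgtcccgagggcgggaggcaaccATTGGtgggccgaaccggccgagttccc
H1f0, chr15:79027962-79028261, forward strand: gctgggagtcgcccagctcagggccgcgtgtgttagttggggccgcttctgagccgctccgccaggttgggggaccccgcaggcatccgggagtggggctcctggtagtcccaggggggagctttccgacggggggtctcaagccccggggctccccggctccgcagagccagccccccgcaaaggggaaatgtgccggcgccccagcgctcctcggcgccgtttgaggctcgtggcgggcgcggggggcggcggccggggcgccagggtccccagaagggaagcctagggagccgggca
CCAAT occurred 4 times in H3f3b and H2afv, 3 times in H2afz and H2afj, once in H3f3a and H2afy2, and not in H1f0, H1fx or H2afy. Thus 6 of 9 windows held it, against 37.4% of all 32851 windows, and 4 of 9 held it at least 2 times, against 11.7%. The word GGGCGG, bound by Sp1, was in 7 of 9 windows, against 35.7% of all, and TATAAA in H3f3b alone, against 13.6% of all. The words TTTCCCGC and TTTGGCGC of E2F sites and the word TGACGTCA of CREB sites, each searched on both strands, were in none of the 9, against 1.07%, 0.514% and 1.79% of all windows. AAACACA, a word known from linker histone promoters, was in H3f3a alone, against 7.18% of all. The RefSeq starts differ from the GENCODE gene starts in some genes. The H1f0 window lies before the start that GENCODE gives at 79028450 and covers no base of the annotated transcript, and the H3f3b window lies inside the gene, whose 5′ end GENCODE gives at 116027962. The words counted in these windows are therefore placed by the RefSeq start alone.

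Of 30 genes for chaperones and complexes that load, remove or store histones, 29 were tested, and Srcap was not analysed here. With the block edgeR called 1 higher and 0 lower, against 3.80% and 3.63% of all genes, and the list's median log2 fold change was 0.00, as over all genes. The gene that rose was Atrx, a remodeller that places H3.3 in heterochromatin with Daxx. It had 117, 90.4 and 103 CPM in p27 OE 1, 2 and 3, against 91.2, 83.1 and 89.3 CPM in EV control 1, 2 and 3 (0.23 ± 0.06, adjusted p 0.0317 in edgeR with the block, but 0.687 without it, 0.125 after correction for length and GC content or 0.0682 and 0.168 without the libraries numbered 1 or 3).

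The next by p were subunits of the SRCAP complex, which exchanges H2A for H2A.Z. Znhit1 had 21.8, 19.9 and 18.9 CPM in p27 OE 1, 2 and 3, against 23.5, 27.5 and 23.4 CPM in EV control 1, 2 and 3, and Vps72, which binds H2A.Z, had 37.9, 35.8 and 35.8 CPM in the p27 OE libraries, against 41.5, 41.7 and 40.4 CPM in EV control. Neither pair of groups overlapped. The estimate of the blocked edgeR fit was -0.29 ± 0.08 for Znhit1 (adjusted p 0.0501) and -0.17 ± 0.06 for Vps72 (0.113), so neither was called.

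Of 14 genes for the 3′ ends of S phase histone mRNAs, edgeR with the block called 0, against 7.43% of all genes, with a median log2 fold change of 0.00, as over all genes. The 3 with the smallest p were Srrt, a partner of the cap-binding complex (0.19 ± 0.06, adjusted p 0.0759), Lsm10, a part of the U7 particle that cleaves these mRNAs (-0.24 ± 0.09, adjusted p 0.106), and Ncbp1, a cap-binding protein gene (0.14 ± 0.06, adjusted p 0.149). Srrt was at 108, 54.9 and 59.9 CPM in p27 OE and 87.5, 52.0 and 52.7 CPM in EV control, with the libraries numbered 1 far above the others in both groups.

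Of 17 other variant genes looked up by name, H3f3c and H2al2a were absent from the table of counts under these symbols. Among the rest, 2 had enough counts to be tested. Cenpa, which encodes the H3 variant of centromeres, had 32.9, 28.5 and 30.2 CPM in p27 OE 1, 2 and 3, against 35.6, 36.5 and 37.5 CPM in EV control 1, 2 and 3. Its groups did not overlap and it fell by 0.26 ± 0.07 on the log2 scale (edgeR with the block, adjusted p 0.0446, but 0.683 with no block, and 0.177 and 0.277 without the libraries numbered 2 or 3). Hist3h2a had 8.39, 6.29 and 6.65 CPM in p27 OE and 7.56, 5.76 and 6.75 CPM in EV control and was not called (0.09 ± 0.12, adjusted p 0.716). Hist3h2ba was counted at most 18 times in a library, and the germ line variants H1foo, H1fnt, H2afb1, H2afb2 and Hist1h2ba had 0 counts in all libraries.

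Among 10607 tested genes of at least 5 CPM on average, the 5 whose pattern over the 6 libraries was most like that of H1f0 were Fcgrt, which encodes the neonatal Fc receptor, Mrps35, of the mitochondrial ribosome, Pafah1b3, Spice1 and Prkra, with a root mean square difference of 0.032 to 0.040 in centred log2 CPM. Fcgrt had 71.6, 66.0 and 62.1 CPM in p27 OE 1, 2 and 3, against 88.5, 79.2 and 78.2 CPM in EV control 1, 2 and 3. In edgeR with the block 4 of the 5 were called lower, Spice1 being at an adjusted p of 0.0553. They were picked for the likeness of their values, so these calls are a description.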

How the data were processed

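RNA of 3 p27 OE and 3 EV control libraries was prepared with a TruSeq kit that does not mark strand, per the labels' protocols. The authors deposited counts of reads per gene, which were taken to be raw counts. TopHat2 2.0.14, Bowtie2 2.2.6, featureCounts 1.4.6 and the build mm10 are named in the submitters' processing notes. From these counts, CPM were computed on library sizes scaled by TMM, and edgeR 4.0.16 (R 4.3.3, limma 3.58.1) fitted a quasi-likelihood model to the 14090 genes that passed filterByExpr (minimum count 10, total 15), with Benjamini-Hochberg adjustment over all of them and a threshold of 0.05. The model fixed for the study had the group alone; since the labels share replicate numbers, a fit with the number as a block (the paired or blocked fit) was also run. The numbers paired the libraries: deviations from the group means correlated at 0.77, 0.42 and 0.54 for the numbers 1, 2 and 3, each over 0.1, from the data and not from a stated pairing. The correlation was about as high across the numbers 2 and 3 (0.39 for p27 OE 3 with EV control 2, 0.41 for p27 OE 2 with EV control 3). The check thus separates number 1 from the others and hardly tells 2 from 3. The level of Xist, given above, did differ between the numbers 2 and 3 in both groups. DESeq2 1.42.0, RLE and upper-quartile scaling, other filters and leaving out each library were alternatives; a loess correction for transcript length and GC content (13455 genes had a length) was added after seeing the data. No test was made of ratios, since 3 against 3 libraries cannot give an exact permutation p below 0.1.

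The members and gene lists were chosen with earlier results of these data known. Named genes are all members, Cdkn1b and, in each of both lists, those called plus the 3 with the smallest p in the blocked fit. Other variants with at least 10 counts in 3 libraries and the 5 genes nearest to H1f0 in pattern were also named. Pdgfra, Mki67, Top2a, Xist and the variants named for low counts were chosen after their values were seen. Replicates differed by more than sampling noise. Sequences come from GENCODE M21 and RefSeq.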

Additional observations from a re-analysis of the deposited data

How the results depend on the processing

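The replicate block decided the calls. Without it, edgeR called 0 of the 10 variants and 0 genes in all, with 1 gene in all when no filter was applied and 0 to 1 genes when single libraries were left out, while DESeq2 called 89 genes and 0 variants. With the replicate block, the fit called 4 variants and 1047 genes in all. The block gave 4 and 1042 with RLE scaling, 6 and 1219 with upper-quartile scaling (483 higher and 736 lower, against 535 and 512 with TMM), 5 and 1416 with no filter, 4 and 1018 with a filter of 1 CPM, 3 and 830 in DESeq2, and 5 and 1272 with the length and GC correction. Leaving out one number at a time gave 2 to 4 variants and 330 to 1741 genes (1741, 928 and 330 without the numbers 1, 2 and 3). Of the chaperone list, the block called 1 gene, as with RLE scaling, the CPM filter and DESeq2, 2 with upper-quartile scaling or no filter, 0 with the length and GC correction, and 0 to 3 when a number was left out (1 lower without number 1, 3 higher without number 2). Of the 3′ end list it called 0, but 1 with the length and GC correction and 0 to 1 when a number was left out. The cause of these shifts was not tested.

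The log2 fold change was negative under all 22 alternatives for 8 variants, all but H2afx and H2afj. Leaving out single libraries took H2afx from -0.25 to 0.09, Srrt from -0.16 to 0.50 and Hist3h2a from -0.05 to 0.18, and among the members below 0 it took H2afy2 from -0.48 to -0.16, H2afv from -0.44 to -0.21, H1f0 from -0.43 to -0.29, H3f3a from -0.27 to -0.05 and H3f3b from -0.26 to -0.08. H1f0 did not have the lowest value of the 10 without p27 OE 1, without EV control 3 or, with the block, without number 3 (-0.33, against -0.35 for H2afy2). H2afx was above 0 without p27 OE 2 (0.07), p27 OE 3 (0.08) or EV control 1 (0.09), in the blocked fit without number 2 (0.03), and with the length and GC correction (0.06, and 0.05 with the block). H2afj was at 0.00 with upper-quartile scaling, with and without the block, at 0.00 in the blocked fit without number 3, and at -0.01 without EV control 3 or in the blocked fit without number 2. Srrt was at -0.16 without p27 OE 1, and Hist3h2a at -0.05 without p27 OE 1 and -0.01 without EV control 2. Scaled to the longest transcript, the p27 OE level was 129 CPM per kb for H2afz, 23.0 for H2afy, 103 for H3f3a and 142 for H3f3b. When a library was left out, the log2 difference in the ratio of H2afy to H2afy2 ran from 0.07 to 0.42, that of H2afz to H2afv from 0.01 to 0.23, and that of H2afj to H2afx from -0.05 to 0.28.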
